A study of Rattus norvegicus with 65 samples.

Results

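The genes described here are 10 transcriptional regulators of mitochondrial number and fuel use: the fatty acid sensing receptors Ppara, Ppard and Pparg, the coactivators Ppargc1a and Ppargc1b, the estrogen-related receptors Esrra, Esrrb and Esrrg, and the transcription factors Nrf1 and Tfam. They were chosen by name, and each symbol matched 1 of the 14554 genes in the deposited counts, so that 10 of 10 were measured and 10 passed the filter on low counts. The counts come from cultured neonatal rat cardiomyocytes given 5-fluorouracil (5FU, 10 mM), acetaminophen (Ace, 2.5 mM) or doxorubicin (Dox, 1.25 uM) for 6 or 24 h. DMSO1 (1% DMSO) is the control of 5FU, and DMSO2 (0.25% DMSO) is the control of both Ace and Dox. At 6 h there were 6 libraries each of 5FU, Ace and DMSO1 and 7 each of Dox and DMSO2. At 24 h there were 6 each of 5FU and DMSO1 and 7 each of Ace, Dox and DMSO2, which makes 65 libraries in 10 groups. All groups were plated in medium with serum, starved of serum overnight and then treated in medium without serum. They share 1 source, hearts of newborn rats from 3 litters whose cells were mixed before plating. Libraries of a group are therefore parallel cultures of 1 preparation, and p-values measure the spread between cultures and not between animals.

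Peroxisome proliferator-activated receptors (PPARs) are nuclear receptors that bind DNA together with a retinoid X receptor and, with a fatty acid or lipid bound, turn on genes of fatty acid uptake, storage and oxidation. PGC-1 alpha (Ppargc1a) and PGC-1 beta (Ppargc1b) dock on PPARs, on estrogen-related receptors (ERRs) and on NRF1 and raise their activity, and in heart they are best known for driving mitochondrial biogenesis. ERRs act with PGC-1 on genes of the respiratory chain and the citric acid cycle. NRF1, nuclear respiratory factor 1 (the gene Nrf1, not Nfe2l1), turns on nuclear genes of respiration, among them Tfam, whose product packages mitochondrial DNA and is needed for its transcription.

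Promoter windows of 9 of the 10 genes were found in RefSeq (build GRCr8), 13 windows in all, from 250 bases before an annotated start to 50 after it. The gene without one was Ppard. Both strands were searched for AGGTCA and AAGGTCA (the core site of nuclear receptors and the longer ERR form, which contains it), GCATGCGC (NRF1), CGGAAG (ETS factors such as GABP) and TGACGTCA (CREB). Stretches before the start are shown for the coactivator that was lower under every drug, for both receptors holding the NRF1 word, and for Tfam. Those of Ppargc1a, Ppara and Esrra lie inside the annotated gene, which begins upstream of the start used here. That of Tfam lies before its annotated gene. Capitals mark the matched letters, and each sequence reads 5′ to 3′ on the strand of its gene.
Ppargc1a, chr14:63634058-63634307, plus strand: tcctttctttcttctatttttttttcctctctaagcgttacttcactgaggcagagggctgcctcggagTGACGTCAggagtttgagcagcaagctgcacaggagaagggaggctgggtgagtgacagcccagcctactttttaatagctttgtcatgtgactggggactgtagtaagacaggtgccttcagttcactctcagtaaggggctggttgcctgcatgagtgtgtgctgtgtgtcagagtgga
Ppara, chr7:118712497-118712526, plus strand: gggctcggtgGCGCATGCGCgtggaccagg
Esrra, chr1:213543402-213543431, minus strand: ccccctgttttGCATGCGCaggccgacccc
Tfam, chr20:17355123-17355372, plus strand: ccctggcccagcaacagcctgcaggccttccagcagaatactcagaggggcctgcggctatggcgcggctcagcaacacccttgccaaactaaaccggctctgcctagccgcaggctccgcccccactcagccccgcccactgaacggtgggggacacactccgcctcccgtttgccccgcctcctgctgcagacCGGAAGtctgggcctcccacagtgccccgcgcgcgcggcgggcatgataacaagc
The CREB word of Ppargc1a begins at position -181 from the start, and 1.83% of all 33469 rat windows of this length hold that word. In Ppara the NRF1 word lies on both strands in 1 overlapping run, at positions -100 and -98, and in Esrra it begins at -115; 2.47% of all windows hold it. Tfam has the ETS word at -55, Esrrb at -79 and 1 of the 4 Esrrg windows at -211, against 16.6% of all windows. AGGTCA was found in that same Esrrg window, at -135, against 16.2% of all windows. The longer ERR form, which 4.61% of windows hold, matched in none of the 13. These are matches of letters and not sites shown to be bound.

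Libraries are numbered within a group in the order of their columns. Library totals ran from 14332827 to 25738297 estimated counts. Levels are given as CPM, estimated counts scaled to 1 common library size with TMM factors, in the order lowest, median and highest library of a group, and changes as log2 fold change ± SE with the FDR of edgeR's quasi-likelihood test over all genes. Pparg, with 7 to 49 counts in a library, and Esrrb, with 7 to 117, were the thinnest of the 10 genes, and Esrra, with 1425 to 3439, the best covered. The biological coefficient of variation between cultures was 19.7% for Esrrb and 19% for Pparg, against 5.05% for Nrf1 and 5.55% for Tfam. Gene lengths were not used here, so levels are compared between groups and never between genes. The libraries least like the rest of their group, with median correlations of 0.982 to 0.983, were library 1 of DMSO1 at 24 h, library 1 of 5FU at 6 h and library 7 of Dox at 24 h. None of these 3 is a 6 h library of Dox or DMSO2, so leaving them out removes no library from that comparison. Without them, over the 10 genes and 16 comparisons, 1 call was lost and 4 were gained. Ppard in 5FU at 6 h was lost (FDR 0.026). Pparg in 5FU at 6 h (FDR 0.0086) and Tfam in Ace at 24 h (FDR just under 0.01) were gained. So were Esrrb between times of 5FU (FDR 0.0088) and Pparg between Dox and 5FU effects at 6 h (FDR 0.0047).

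Dox lowered both coactivators to under 35% of their control at both times. Esrrb, Esrrg, Ppara and Nrf1 were also lower at both times, at 21.8% to 73.1% of control. Ppard was lower at 6 h and higher at 24 h, and Tfam rose. At an FDR below 0.01, Dox at 6 h moved 8 of the 10 genes, 7 down and 1 up, where 64.2% of all genes (31.5% up, 32.7% down) passed. At 24 h it moved 8, 6 down and 2 up, where 81.4% of all genes (40.4% up, 41% down) passed. In 5FU 4 genes fell and none rose at 6 h, against 47.9% of all genes (23.4% up, 24.5% down), and 4 fell and 2 rose at 24 h, against 55.8% of all genes (28% up, 27.8% down). In Ace 4 fell and 1 rose at 6 h, against 31.7% of all genes (16.5% up, 15.2% down), and 1, Ppargc1a, fell at 24 h, against 37.2% of all genes (18.2% up, 19.1% down). With 10 genes, the totals in 5FU and in Dox at both times lay near the background, and no total was tested against it. The median log2 change of the 10 genes was -0.77 and -0.92 in Dox at 6 and 24 h, -0.24 and -0.21 in 5FU and -0.11 and -0.11 in Ace, while the medians over all genes lay between -0.01 and 0.00. Scaled by library size alone, without TMM, the calls in Dox at 6 h were 8 down and 0 up, Tfam no longer passing and Esrra passing, and in Ace at 24 h Tfam passed as well. That scaling moves the median of all genes to -0.15 in Dox at 6 h and 0.06 in Ace at 24 h. The share of all genes passing under it was not computed. In bulk RNA fewer cells of a type and less RNA per cell cannot be told apart.

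**Figure D1:**
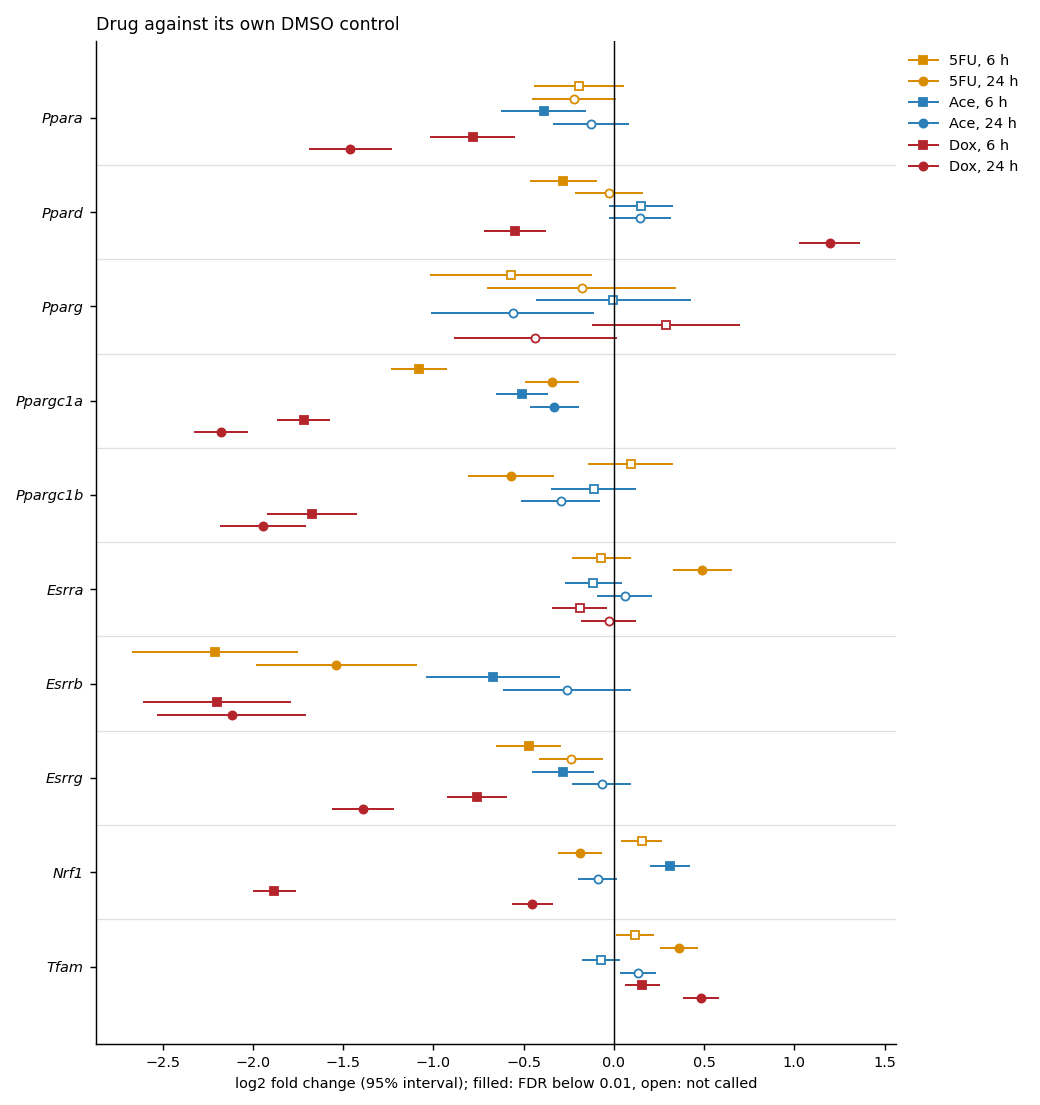
Log2 fold change of each gene (horizontal axis, with 95% intervals) for each drug against its own DMSO control, squares for 6 h and circles for 24 h; filled symbols passed an FDR below 0.01. Ppargc1a lies left of 0 in all 6 comparisons, Ppard changes side between 6 and 24 h of Dox (-0.55 and 1.2), and the intervals of Pparg and Esrrb are the widest.

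Markers of cell types moved in the same comparisons. Tnnt2, Myh6 and Actn2 of the cardiomyocyte list were present in every library. The summed level of its 9 measured markers was 41030 to 46040 CPM in DMSO2 and 41430 to 59330 in Dox at 6 h, where 4 rose and 3 fell. At 24 h it was 36330 to 47340 in DMSO2 and 19780 to 25540 in Dox, where 8 fell and only Nppa rose, and 34090 to 40260 in DMSO1 and 27420 to 29760 in 5FU, where 6 fell and 2 rose. These sums do not overlap between drug and control at 24 h of Dox and of 5FU. Nppa alone was 10910 to 13690 CPM of the sum in Dox at 24 h, against 763.5 to 1494 in DMSO2. The sum thus understates the fall of the other markers there, and the median log2 change of the 9 was -2.87. In 5FU at 24 h that median was -0.87, with Nppa at 4877 to 6993 CPM against 1137 to 2600 in DMSO1. Fibroblast markers fell in 7 of 10 at 6 h and 10 of 10 at 24 h of Dox, the 24 h sum being 1942 to 4092 CPM against 15160 to 18950. They fell in 10 of 10 in 5FU and 9 of 10 in Ace at 24 h, with sums of 5189 to 5860 and 7297 to 9324 CPM. Endothelial markers fell in 7 of 7 at both times of Dox, to 62.9 to 101 and 20.8 to 45.7 CPM from 186 to 238 and 223 to 293. Macrophage markers fell in 8 of 8 at 24 h of Dox, to 24.2 to 35.6 from 67.1 to 89.3 CPM. Cldn5 (endothelial) was at 0 in 5 and Cd163 (macrophage) at 0 in 3 of the 7 Dox libraries at 24 h. Cldn5 was also at 0 in 3 of the 6 libraries of 5FU at 6 h, and Cd163 in 1 Ace library at 6 h. Cd163 was near the floor in every group, with medians of 0.121 to 0.579 CPM. Of 5 smooth muscle markers 4 rose and 1 fell at 6 h and 3 rose and 1 fell at 24 h of Dox, and of 4 adipocyte markers 2 rose and 2 fell at 24 h. At 6 h of Dox 2 macrophage markers rose and 2 fell.

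Markers moved under Ace and 5FU as well. In Ace at 6 h, where Ppargc1a, Esrrb, Esrrg and Ppara fell, 8 of 10 fibroblast markers fell, their sum being 7361 to 10990 CPM against 9725 to 14500 in DMSO2. Endothelial markers fell there in 3 of 7, to 134 to 167 CPM, macrophage markers in 1 of 8 and cardiomyocyte markers in 1 of 9, and none of the smooth muscle or adipocyte markers passed. In Ace at 24 h 4 endothelial, 5 macrophage, 2 smooth muscle and 2 adipocyte markers fell and none rose, while 3 cardiomyocyte markers fell and 1 rose. In 5FU at 6 h 3 fibroblast and 3 endothelial markers fell and none rose, 2 macrophage markers fell and 1 rose, and 2 cardiomyocyte markers fell and 1 rose. Of the smooth muscle markers 1 rose and 1 fell at 6 h of 5FU, and 1 adipocyte marker rose. At 24 h of 5FU 5 endothelial, 3 macrophage and 1 adipocyte marker fell and none rose, while 3 smooth muscle markers fell and 2 rose. The part of these shifts in the results that follow was not tested.

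Ppargc1a was the only gene of the 10 that passed the test in all 6 drug comparisons, each time below its control. At 6 h it had 40.6, 41.6 and 50.1 CPM in DMSO2, 28.5, 31.3 and 33.9 in Ace and 11.5, 13.5 and 15.5 in Dox. Every Ace library lay below every DMSO2 library, and every Dox library below every Ace library. Dox left 30.4% of the DMSO2 level (-1.72 ± 0.07, FDR 1.2e-30) and Ace 70.3% (-0.51 ± 0.07, FDR 2.1e-08). In the 5FU arm it had 33.2, 39.5 and 44.01 CPM in DMSO1 and 14.8, 18.7 and 20.8 in 5FU, which left 47.4% without overlap (-1.08 ± 0.08, FDR 3.2e-19).

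At 24 h Ppargc1a had 43.2, 53.5 and 57.5 CPM in DMSO2, 37.1, 39.99 and 44.4 in Ace and 10.3, 10.7 and 12.9 in Dox. Dox left 22.1% (-2.18 ± 0.07, FDR 1.1e-36) without overlap, and Ace 79.5% (-0.33 ± 0.07, FDR 3e-05) with overlap. DMSO1 had 38.1, 45.3 and 48.9 and 5FU 32.2, 35.4 and 37.1 CPM, again apart, at 78.8% (-0.34 ± 0.07, FDR 4e-05). The fall in 5FU was smaller at 24 h than at 6 h, by 0.73 ± 0.11 on the log2 scale (FDR 3e-08), and the fall in Dox deeper (-0.46 ± 0.10, FDR 7.1e-05). Scaled by library size alone, the latter no longer passed (-0.26, FDR 0.034). From low to high, the medians came in the order Dox at 24 h, Dox at 6 h, 5FU at 6 h, Ace at 6 h, 5FU at 24 h, DMSO1 at 6 h, Ace at 24 h, DMSO2 at 6 h, DMSO1 at 24 h and DMSO2 at 24 h. The only neighbours in that order whose ranges do not overlap are 5FU and Ace at 6 h.

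Ppargc1b fell in Dox like Ppargc1a and took another course under 5FU. At 6 h it had 18.3, 25.8 and 30.97 CPM in DMSO2, 18.5, 23.7 and 26.4 in Ace and 5.34, 8.07 and 10.9 in Dox. The 24 h levels were 32.5, 41.3 and 49.1 CPM in DMSO2, 29.1, 33.9 and 38.5 in Ace and 9.41, 10.7 and 12 in Dox. Every Dox library lay below every library of the other 8 groups. Dox left 31.4% at 6 h (-1.67 ± 0.12, FDR 6.4e-19) and 25.99% at 24 h (-1.94 ± 0.12, FDR 1.5e-23), and the difference between the times did not pass (-0.27 ± 0.17, FDR 0.15). In Ace the values were -0.11 ± 0.12, FDR 0.47 at 6 h and -0.30 ± 0.11, FDR 0.019 at 24 h. The second passed in a fit of these groups alone (-0.29, FDR 0.005) and without DMSO2 library 5 (-0.35, FDR 0.0069).

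Under 5FU Ppargc1b had 28.1, 34.8 and 46.7 CPM at 6 h against 24.4, 35.4 and 39.4 in DMSO1, ranges that overlap (0.09 ± 0.12, FDR 0.51). At 24 h it had 22.2, 24.6 and 30.3 against 33.1, 37.4 and 42.8, without overlap, at 67.4% (-0.57 ± 0.12, FDR 3.2e-05). The 5FU effect on Ppargc1b thus moved down between the times (-0.66 ± 0.17, FDR 0.0007), where that on Ppargc1a moved up.

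**Figure D2:**
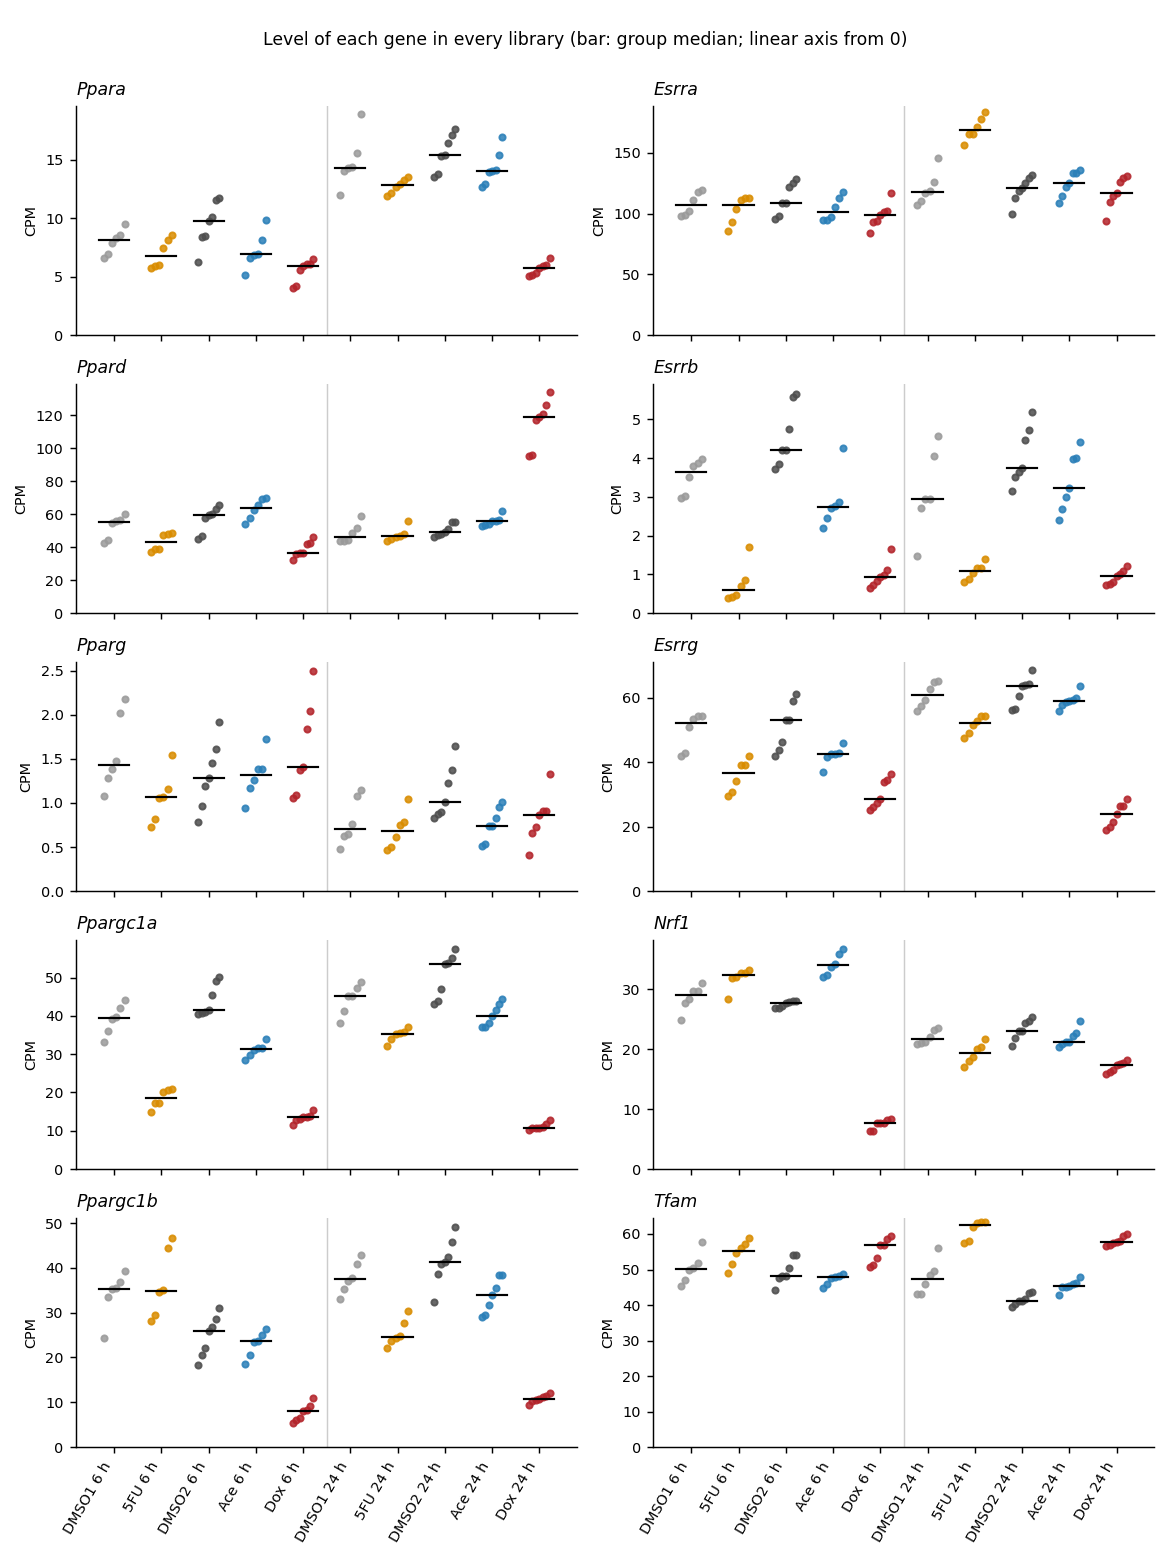
CPM of each gene in every library (vertical axes, linear and starting at 0) across the 10 groups; points are libraries and bars are group medians. The Dox points of Ppargc1b sit below all other groups, those of Nrf1 go from a median of 7.698 CPM at 6 h to 17.3 at 24 h, and those of Ppard stand above all other groups at 24 h.

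Among the ERRs, Esrrg and Esrrb fell in Dox and in 5FU at 6 h, and no change of Esrra passed the test there. Esrrg, a receptor of oxidative genes in the heart, had 41.9, 52.96 and 61.1 CPM in DMSO2 at 6 h, 36.95, 42.6 and 46.03 in Ace and 25.2, 28.5 and 36.2 in Dox. The 24 h levels were 56.3, 63.5 and 68.7 CPM in DMSO2, 55.9, 59.02 and 63.5 in Ace and 18.9, 24 and 28.6 in Dox. No Dox library reached the lowest DMSO2 library at either time. Dox left 59.1% at 6 h (-0.76 ± 0.08, FDR 2.2e-12) and 38.2% at 24 h (-1.39 ± 0.08, FDR 1.2e-23), a deeper fall at 24 h (-0.63 ± 0.12, FDR 3e-06). In Ace it was at 82.2% at 6 h (-0.28 ± 0.08, FDR 0.005) and 95.4% at 24 h (-0.07 ± 0.08, FDR 0.51), with overlap at both times. The 6 h call in Ace was lost without Ace library 3 (-0.27, FDR 0.012), Ace library 6 (-0.24, FDR 0.026), DMSO2 library 4 (-0.23, FDR 0.023) or DMSO2 library 6 (-0.24, FDR 0.024).

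In 5FU at 6 h Esrrg had 29.6, 36.6 and 41.9 CPM against 41.9, 52.1 and 54.5 in DMSO1, at 72.1% (-0.47 ± 0.09, FDR 5.8e-06), and the highest 5FU library lay just under the lowest control. At 24 h it had 47.4, 52.1 and 54.4 against 55.8, 60.96 and 65.2, also apart, but the change (-0.24 ± 0.09, FDR 0.014) passed only in a fit of these groups alone (FDR 0.00052), of the settings tried at this threshold.

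Esrrb, the ERR best known from embryonic stem cells, had the largest log2 falls of the 10 genes at 6 h of Dox and of 5FU, on few counts. In 5FU at 6 h it had 0.393, 0.584 and 1.71 CPM against 2.97, 3.65 and 3.98 in DMSO1, and in Dox 0.652, 0.940 and 1.66 against 3.71, 4.21 and 5.65 in DMSO2. Neither pair overlapped. 5FU left 21.6% (-2.21 ± 0.23, FDR 1.6e-12) and Dox 21.8% (-2.2 ± 0.21, FDR 7.7e-15), and the difference between these effects had an interval of -0.52 to 0.55. At 24 h 5FU had 0.804, 1.09 and 1.41 CPM against 1.47, 2.95 and 4.56 and Dox 0.724, 0.964 and 1.21 against 3.16, 3.74 and 5.19, both pairs again apart. 5FU left 34.4% (-1.54 ± 0.23, FDR 2e-08) and Dox 23.01% (-2.12 ± 0.21, FDR 2.1e-14). The difference of the 5FU effect between 24 and 6 h did not pass (0.67 ± 0.33, FDR 0.084), except without library 1 of 5FU at 6 h (1.07, FDR 0.0043), the highest of that group, or with the 3 libraries named above left out (0.92, FDR 0.0088). In Ace Esrrb had 2.19, 2.74 and 4.25 CPM at 6 h, at 62.8% (-0.67 ± 0.19, FDR 0.0025), a call lost without Ace library 6 (-0.59, FDR 0.012), and 2.41, 3.23 and 4.42 at 24 h (-0.26 ± 0.18, FDR 0.23).

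Esrra, a receptor through which PGC-1 alpha acts on respiratory genes, passed the test in only 1 of the 6 drug comparisons. That was a rise in 5FU at 24 h, from 107, 118 and 145 CPM in DMSO1 to 156, 168 and 184 without overlap, at 140% (0.49 ± 0.08, FDR 3.3e-07). At 6 h 5FU had 85.3, 107 and 113 CPM against 98.1, 107 and 119 (-0.07 ± 0.08, FDR 0.48), and the effects at the 2 times differed (0.56 ± 0.11, FDR 4e-05). In Dox Esrra had 83.7, 98.4 and 117 CPM at 6 h against 95.1, 109 and 129, and 94.04, 117 and 131 at 24 h against 99.4, 121 and 131, with overlap at both times. The changes were -0.19 ± 0.08, FDR 0.021 and -0.03 ± 0.07, FDR 0.71, the latter with an interval of -0.18 to 0.12 and a sign that turns to 0.02 when scaled by library size alone. The 6 h change passed without DMSO2 library 5 (-0.23, FDR 0.0076) or Dox library 4 (-0.23, FDR 0.0054). It also passed under scaling by library size alone (-0.34, FDR 5.1e-05), which moves the median of all genes to -0.15 in this comparison. In Ace the changes were -0.11 ± 0.08, FDR 0.25 and 0.06 ± 0.07, FDR 0.53.

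In Dox Ppara and Ppard both fell at 6 h, and at 24 h Ppara was below and Ppard above control. Ppara, the form that drives fatty acid oxidation in heart and liver, had 6.27, 9.81 and 11.7 CPM in DMSO2 and 4.02, 5.96 and 6.53 in Dox at 6 h. The 24 h levels were 13.6, 15.4 and 17.7 CPM in DMSO2 and 5.04, 5.71 and 6.57 in Dox. At 6 h the ranges overlapped through the lowest DMSO2 library, and at 24 h they were apart. Dox left 58.1% (-0.78 ± 0.12, FDR 2.5e-08) and 36.3% (-1.46 ± 0.11, FDR 1.8e-18). The effect was deeper at 24 h (-0.68 ± 0.16, FDR 0.00021), a difference that did not pass under scaling by library size alone (-0.48, FDR 0.013). In 5FU it had 5.78, 6.74 and 8.59 CPM at 6 h against 6.62, 8.12 and 9.55 in DMSO1 (-0.19 ± 0.12, FDR 0.18), and 11.95, 12.8 and 13.5 at 24 h against 12.01, 14.3 and 18.9 (-0.22 ± 0.12, FDR 0.088), both with overlap.

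In Ace Ppara had 5.15, 6.93 and 9.84 CPM at 6 h, overlapping DMSO2, at 76.3% (-0.39 ± 0.12, FDR 0.0056), and 12.7, 14.04 and 16.96 at 24 h (-0.13 ± 0.11, FDR 0.34). The 6 h call was lost without Ace library 3, 4, 5 or 6 or DMSO2 library 2, 4, 5 or 6, with changes from -0.38 to -0.30 and FDRs from 0.012 to 0.042, and in a fit of these groups alone (FDR 0.036).

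Ppard, the form found in most tissues, changed direction in Dox. At 6 h it had 44.8, 59.2 and 65.4 CPM in DMSO2 and 32.2, 36.3 and 46.4 in Dox. The 24 h levels were 46.2, 49.4 and 55.4 CPM in DMSO2 and 95.3, 119 and 134 in Dox. At 6 h the ranges overlapped, and at 24 h the lowest Dox library lay above every library of the other 9 groups. Dox left 68.3% at 6 h (-0.55 ± 0.09, FDR 7e-08) and gave 229% at 24 h (1.2 ± 0.08, FDR 1.6e-20), a difference of 1.74 ± 0.12 (FDR 2.4e-20). In Ace it had 53.9, 63.8 and 69.9 CPM at 6 h (0.15 ± 0.09, FDR 0.16) and 52.9, 55.5 and 61.7 at 24 h (0.14 ± 0.08, FDR 0.16). In 5FU it had 37.1, 43.2 and 48.4 CPM at 6 h against 42.5, 55.2 and 60.3 in DMSO1, and 43.8, 46.5 and 55.6 at 24 h against 43.8, 46.4 and 58.8, with overlap at both times. The 6 h fall to 82.3% (-0.28 ± 0.09, FDR 0.0072) was lost without 5FU library 1, 2 or 5 or DMSO1 library 1, 3, 4 or 5, with changes from -0.27 to -0.24 and FDRs from 0.015 to 0.03, and in a fit of these groups alone (FDR 0.028). The 24 h value was -0.03 ± 0.09, FDR 0.81.

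Pparg, the adipose form, passed in none of the 6 drug comparisons by edgeR or by DESeq2, and 2 of its changes had an unadjusted p below 0.05 by edgeR. Its group medians lay between 0.686 CPM in 5FU at 24 h and 1.43 in DMSO1 at 6 h, and every drug group overlapped its control. The values at 6 and 24 h were -0.57 ± 0.23, FDR 0.027 and -0.18 ± 0.27, FDR 0.57 in 5FU, 0.00 ± 0.22, FDR 0.99 and -0.56 ± 0.23, FDR 0.037 in Ace, and 0.29 ± 0.21, FDR 0.2 and -0.43 ± 0.23, FDR 0.072 in Dox. The interval in Dox at 24 h, -0.88 to 0.01, shows how wide a change these counts leave possible. Without library 1 of 5FU at 6 h the first of these passed (-0.71, FDR 0.0095).

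Nrf1 fell early in Dox, and the gap to the control was much smaller at 24 h. At 6 h it had 26.8, 27.7 and 28.1 CPM in DMSO2, 32.1, 33.98 and 36.8 in Ace and 6.3, 7.698 and 8.34 in Dox. The 3 groups did not overlap, with Ace above DMSO2 and Dox below it. Dox left 27.1% (-1.88 ± 0.06, FDR 1.8e-37) and Ace gave 124% (0.31 ± 0.05, FDR 2.1e-06). The 24 h levels were 20.5, 23.1 and 25.5 CPM in DMSO2, 20.4, 21.2 and 24.7 in Ace and 15.8, 17.3 and 18.1 in Dox. Dox lay below DMSO2 without overlap, at 73.1% (-0.45 ± 0.05, FDR 2.1e-11), and Ace overlapped DMSO2 (-0.09 ± 0.05, FDR 0.16). The effects at 24 and 6 h differed in Dox (1.43 ± 0.08, FDR 1.2e-24) and in Ace (-0.40 ± 0.08, FDR 4.6e-05).

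In 5FU Nrf1 had 28.3, 32.3 and 33.3 CPM at 6 h against 24.8, 29.03 and 31 in DMSO1, and 17.1, 19.4 and 21.7 at 24 h against 20.95, 21.6 and 23.5, with overlap at both times. The values were 0.15 ± 0.06, FDR 0.015 at 6 h and -0.19 ± 0.06, FDR 0.0038 at 24 h, and they differed (-0.34 ± 0.08, FDR 0.0003). The first passed with DESeq2 (FDR 0.005), with its size factors in edgeR (FDR 0.0085) and with filterByExpr (FDR 0.0097), and without 5FU library 5 (0.18, FDR 0.0054) or DMSO1 library 4 (0.18, FDR 0.0069). The second was lost without 5FU library 1 or 5 or DMSO1 library 1, 3 or 6, with changes from -0.17 to -0.15 and FDRs from 0.011 to 0.025, and in a fit of these groups alone (FDR 0.013).

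Tfam rose in Dox and, at 24 h, in 5FU. In Dox it had 50.7, 56.96 and 59.4 CPM at 6 h against 44.3, 48.3 and 54.2 in DMSO2, and 56.6, 57.7 and 59.9 at 24 h against 39.4, 41.1 and 43.7. The ranges overlapped at 6 h and were apart at 24 h. The 6 h rise, to 112% (0.16 ± 0.05, FDR 0.0025), was near 0 under scaling by library size alone (0.00, FDR 0.94) and did not pass in a fit of these groups alone (FDR 0.014) or without DMSO2 library 5 (0.13, FDR 0.013). At 24 h it was at 140% (0.48 ± 0.05, FDR 2.7e-14), and the effects differed (0.33 ± 0.07, FDR 2.1e-05).

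In 5FU Tfam had 57.3, 62.6 and 63.4 CPM at 24 h against 42.96, 47.2 and 56.1 in DMSO1, without overlap, at 128% (0.36 ± 0.05, FDR 1.1e-08). At 6 h it had 48.9, 55.3 and 58.97 against 45.4, 50.1 and 57.6 (0.12 ± 0.05, FDR 0.049), which passed without DMSO1 library 2 (0.15, FDR 0.0092). The difference between the times (0.25 ± 0.07, FDR 0.0037) was lost in a fit of these groups alone (FDR 0.043) and without 5FU library 3 at 6 h, DMSO1 library 3 at 24 h or DMSO1 library 2 at 6 h, with changes from 0.20 to 0.22 and FDRs from 0.011 to 0.017. In Ace it had 44.7, 47.8 and 48.8 CPM at 6 h (-0.07 ± 0.05, FDR 0.25) and 42.8, 45.3 and 47.8 at 24 h (0.13 ± 0.05, FDR 0.019), the latter passing in a fit of these groups alone (FDR 0.0016) and under scaling by library size alone (0.19, FDR 0.00033).

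Dox and Ace share their control libraries, so they were also compared directly. At 6 h 8 of the 10 genes differed, 7 of them lower in Dox, where 62.1% of all genes differed, and at 24 h 8, 6 of them lower, where 80.6% did. The 24 h number lay near that share. Ppargc1a in Dox had 43.2% of its Ace level at 6 h (-1.21 ± 0.08, FDR 2.9e-22) and 27.8% at 24 h (-1.85 ± 0.07, FDR 8.2e-33). Nrf1 had 21.9% (-2.2 ± 0.06, FDR 1.9e-40) and 77.8% (-0.36 ± 0.05, FDR 1.3e-08). Ppard was on the low side at 6 h, at 61.5% (-0.70 ± 0.09, FDR 2.7e-10), and on the high side at 24 h, at 207% (1.05 ± 0.08, FDR 3.6e-18). The call of Ppara at 6 h (-0.39 ± 0.12, FDR 0.0041) was lost without Ace library 1 or 2 or Dox library 5 or 6, with changes from -0.36 to -0.29 and FDRs from 0.013 to 0.037, and in a fit of these groups alone (FDR 0.021), and that of Tfam at 6 h (0.23 ± 0.05, FDR 4.6e-05) under scaling by library size alone (0.11, FDR 0.04). Each drug was given at 1 dose, so these are differences between the treatments used.

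The effects of Dox and 5FU, each against its own control, differed for 4 genes at 6 h, where 45.9% of all genes differed, and for 7 at 24 h, where 71.1% did. Both numbers lay near those shares. At 6 h the effect was lower in Dox for Nrf1 (-2.04 ± 0.08, FDR 5.3e-31), Ppargc1b (-1.77 ± 0.17, FDR 6.9e-14), Ppargc1a (-0.64 ± 0.10, FDR 3.4e-07) and Ppara (-0.59 ± 0.17, FDR 0.0026), the last not in a fit of these groups alone (FDR 0.016). Pparg (0.86 ± 0.31, FDR 0.014) passed in 5 fits that left out 1 library, library 1 of 5FU, 6 of DMSO1, 5 of DMSO2 and 2 or 7 of Dox, with changes from 0.94 to 0.997 and FDRs from 0.0052 to 0.0076. At 24 h the effect was lower in Dox for Ppargc1a (-1.83 ± 0.10, FDR 1.1e-24), Ppargc1b (-1.38 ± 0.17, FDR 5.4e-11), Ppara (-1.24 ± 0.16, FDR 5.7e-10), Esrrg (-1.15 ± 0.12, FDR 3.6e-13), Esrra (-0.52 ± 0.11, FDR 2.6e-05) and Nrf1 (-0.26 ± 0.08, FDR 0.0023), and higher for Ppard (1.22 ± 0.12, FDR 1.3e-13). The call of Nrf1 was lost without 5FU library 4 (-0.22, FDR 0.013) and under scaling by library size alone (FDR 0.021). Between 24 and 6 h the effects differed for 6 of the 10 genes in Dox, 5 in 5FU and 1, Nrf1, in Ace, against 64.8%, 39.5% and 11.6% of all genes. These numbers too lay near their shares.

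The control cultures themselves changed between 6 and 24 h. Over DMSO1 and DMSO2, 4 of the 10 genes rose and 3 fell, a total near the 64.6% of all genes that passed (32.7% up, 31.9% down). Ppara rose to 175% (0.81 ± 0.08, FDR 8.6e-14), Ppargc1b to 136% (0.45 ± 0.08, FDR 1.5e-06), Esrrg to 122% (0.28 ± 0.06, FDR 2.1e-05) and Ppargc1a to 114% (0.19 ± 0.05, FDR 0.00046). Pparg fell to 65.5% (-0.61 ± 0.16, FDR 0.00058), Nrf1 to 80.7% (-0.31 ± 0.04, FDR 1.7e-10) and Tfam to 89.03% (-0.17 ± 0.04, FDR 2.6e-05). Ppard (-0.14 ± 0.06, FDR 0.037) passed only without DMSO1 library 2 at 24 h (-0.19, FDR 0.006), of the fits that left out 1 library. Fibroblast markers rose with time in 10 of 10 and macrophage markers in 7 of 8. Of 7 endothelial markers 4 rose and 3 fell, of 5 smooth muscle markers 2 rose and 3 fell, of 4 adipocyte markers 2 rose, and of 9 cardiomyocyte markers 2 rose and 4 fell, among them Nppa (-2.45 ± 0.12, FDR 4.1e-27). Their part in these changes was not tested.

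Between the controls, DMSO1 and DMSO2 at 6 h differed only in Ppargc1b, which was at 138% in DMSO1 (0.46 ± 0.11, FDR 0.0014), where 16.5% of all genes differed. That call was lost in a fit of these groups alone (FDR 0.012) and under scaling by library size alone (0.37, FDR 0.013), where Ppargc1a passed instead (-0.26, FDR 0.0076). At 24 h edgeR and DESeq2 each called none of the 10, where 0.433% of all genes passed an FDR below 0.01 by edgeR. Of the 10, 4 had an unadjusted p below 0.05 by edgeR, a threshold at which the share of all genes was not computed. One of these was Tfam (0.20 ± 0.05, FDR 0.017), which passed without DMSO1 library 2 (0.24, FDR 0.0059) or 3 (0.23, FDR 0.0084) and under scaling by library size alone (0.25, FDR 0.0024). Marker levels also differed between the controls at 6 h, fibroblast markers being lower in DMSO1 in 8 of 10, endothelial markers lower in 5 of 7 and smooth muscle markers higher in 3 of 5. Of 9 cardiomyocyte markers 3 were higher and 1 lower, of 4 adipocyte markers 1 was lower, and the part of these differences was not tested.

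**Figure D3:**
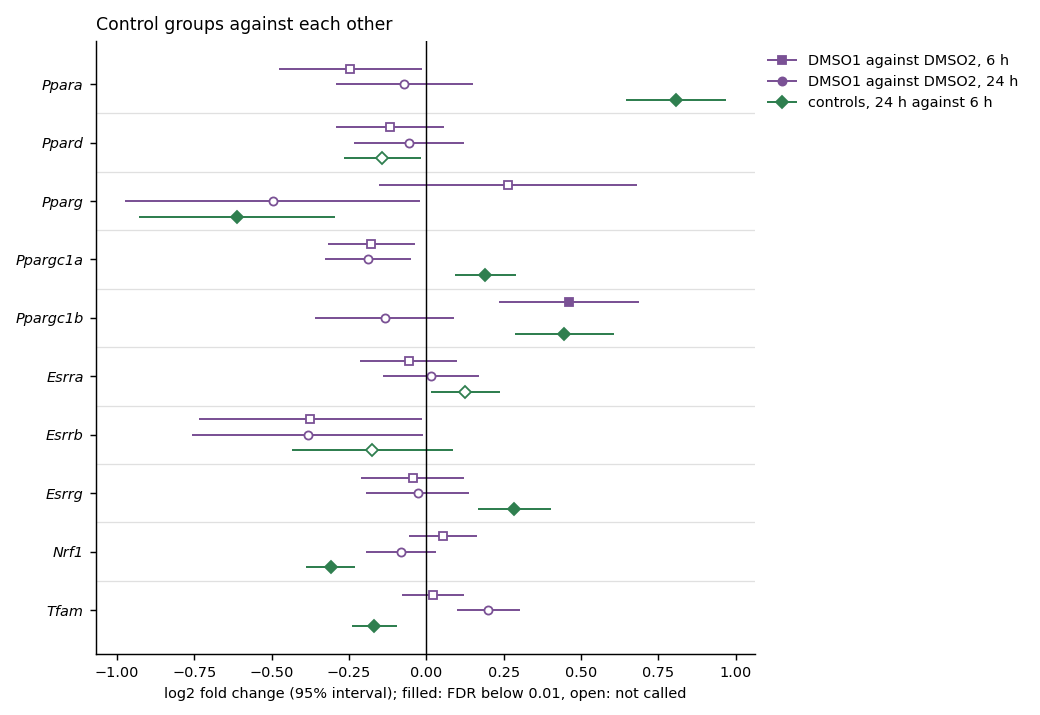
Log2 fold change of each gene (horizontal axis, with 95% intervals) between DMSO1 and DMSO2 at 6 h (squares) and 24 h (circles) and between 24 and 6 h in both controls (diamonds); filled symbols passed an FDR below 0.01. Ppargc1b, at 0.46, is the only filled symbol between the controls, and Ppara, at 0.81, has the highest change with time.

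Genes that work with or under these regulators were counted in 5 lists drawn up by function, with the shares of all genes called given above and medians over all genes near 0. Those shares and medians belong to the main fit. By library size alone the median of all genes was -0.15 in Dox at 6 h, and the shares were not computed. Of 19 measured partners and coregulators, 2 rose and 12 fell in Dox at 6 h (median log2 change -0.29, or 0 up and 14 down by library size alone), and 9 rose and 6 fell at 24 h (0.23). Rxrg, a retinoid X receptor and so a possible DNA partner of the PPARs, fell in Dox at 6 h (-1.8 ± 0.14, FDR 1.5e-17) and at 24 h (-4.79 ± 0.18, FDR 2.2e-34). Perm1, a muscle protein that acts with PGC-1 and ERR, fell at 6 h in Dox (-1.3 ± 0.09, FDR 2.3e-20), in 5FU (-1.15 ± 0.10, FDR 3.7e-16) and in Ace (-0.80 ± 0.09, FDR 8.5e-11). The steroid receptor coactivators Ncoa2 at 6 h (-1.01 ± 0.09, FDR 7.3e-15) and Ncoa1 at 24 h (-1.94 ± 0.07, FDR 5.5e-37) fell in Dox. At 24 h of Dox Pprc1, the PGC-1 related coactivator, rose (0.96 ± 0.09, FDR 4.2e-16), as did Lpin1, lipin 1, a lipid phosphatase that also works with PGC-1 alpha (0.99 ± 0.06, FDR 5.5e-24), while Ppargc1a and Ppargc1b were low. In 5FU 7 rose and 4 fell at each time, and in Ace 3 rose and 3 fell at 6 h (1 and 3 by library size alone) and 4 fell at 24 h, among them Rxra (-0.46 ± 0.07, FDR 2.2e-07).

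Of 19 measured upstream kinases, deacetylases and factors, 2 rose and 11 fell in Dox at 6 h (-0.34, or 4 and 11 with DESeq2's size factors) and 6 rose and 11 fell at 24 h (-0.72). Mef2c, a cardiac transcription factor whose family acts on the Ppargc1a gene, fell in Dox at 6 h (-0.99 ± 0.06, FDR 3.1e-22) and 24 h (-2.5 ± 0.07, FDR 2.7e-42), in 5FU at 6 h (-0.82 ± 0.07, FDR 1.1e-16) and in Ace at 6 h (-0.44 ± 0.06, FDR 5.4e-08). Sirt1, which deacetylates PGC-1 alpha, rose in Dox at 6 h (0.98 ± 0.07, FDR 1.5e-20) and 24 h (1.78 ± 0.07, FDR 2.5e-34), in 5FU at 6 h (0.84 ± 0.07, FDR 1.2e-15) and in Ace at 6 h (0.49 ± 0.07, FDR 3.1e-08). Sirt3, the mitochondrial deacetylase, fell in Dox at 24 h (-1.46 ± 0.08, FDR 2e-25) and rose in 5FU at 24 h (0.40 ± 0.08, FDR 1.9e-05). In 5FU 4 rose and 10 fell at 6 h and 2 rose and 8 fell at 24 h, with the AMPK subunits Prkaa2 (-1.09 ± 0.07, FDR 1.2e-19) and Prkag2 (-0.88 ± 0.08, FDR 8.3e-16) down at 6 h. In Ace 5 rose and 4 fell at 6 h, where Creb1 rose (0.48 ± 0.08, FDR 2.8e-06). Creb1 encodes CREB, and its binding to the word matched in Ppargc1a was not tested. In Ace at 24 h 5 rose and 5 fell, or 3 and 5 with DESeq2's size factors and 5 and 3 by library size alone.

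Of 18 genes of mitochondrial DNA maintenance and transcription, which work beside Tfam, 5 rose and 7 fell in Dox at 6 h (-0.11, or 3 and 10 by library size alone) and 7 rose and 5 fell at 24 h (0.12). Twnk, the helicase of mitochondrial DNA, rose at 6 h (1.04 ± 0.04, FDR 1.2e-33) and 24 h (1.43 ± 0.04, FDR 4e-42), and Polg2, the accessory polymerase subunit, at 24 h (1.78 ± 0.11, FDR 1.4e-23). Mterf2, of the mitochondrial transcription terminator family, fell at 24 h (-2.86 ± 0.15, FDR 2e-27), and Tfb1m, a mitochondrial rRNA methyltransferase, fell at 6 h (-0.67 ± 0.07, FDR 1.2e-13). In 5FU 6 rose and 2 fell at 6 h (4 and 3 by library size alone) and 6 rose and 1 fell at 24 h, with Polrmt, the mitochondrial RNA polymerase, up at 6 h (0.40 ± 0.09, FDR 8.5e-05) and 24 h (0.66 ± 0.09, FDR 1.1e-09). In Ace 4 rose and 1 fell at 6 h (2 and 2 by library size alone) and 7 rose and none fell at 24 h, with Polg, the catalytic polymerase, up at 6 h (0.34 ± 0.05, FDR 1e-08) and 24 h (0.42 ± 0.04, FDR 4e-12). In the controls 1 rose and 10 fell with time.

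Of 23 target genes of ERR and NRF1, mostly respiratory chain and citric acid cycle subunits, 22 rose and none fell in Dox at 6 h (0.27), when Nrf1, Ppargc1a and Esrrg were below control. By library size alone 11 rose and none fell (0.12). At 24 h 5 rose and 15 fell (-0.27). Cox6a2, a heart and muscle subunit of cytochrome oxidase, rose at 6 h (0.57 ± 0.07, FDR 2.6e-11) and 24 h (0.52 ± 0.07, FDR 1.4e-10), and Mdh2 of the citric acid cycle did too (0.42 ± 0.05, FDR 1.1e-12, and 0.51 ± 0.05, FDR 2.6e-16). Idh3a of the same cycle (-1.25 ± 0.05, FDR 5.6e-34), Mb, myoglobin (-1.13 ± 0.07, FDR 7.1e-23), and Ndufs3 of complex I (-1.04 ± 0.06, FDR 8.7e-24) fell at 24 h. In 5FU 20 rose and 1 fell at 6 h (0.30) and 11 rose and 3 fell at 24 h (0.13). In Ace 1 fell and none rose at 6 h, and 1 rose and 6 fell at 24 h (2 and 4 by library size alone). In the controls 3 rose and 12 fell with time.

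Of 27 measured PPAR target genes, 11 rose and 9 fell in Dox at 6 h with a median of 0.08 that turned to -0.07 by library size alone (8 up, 11 down). At 24 h 6 rose and 14 fell (-0.25). Cpt1a, which commits fatty acids to oxidation, fell at 6 h (-2.6 ± 0.07, FDR 5.1e-42) and 24 h (-1.52 ± 0.06, FDR 1.9e-32), and Cpt1b, the muscle form, at 24 h (-2.28 ± 0.11, FDR 8.1e-29). Plin5, a lipid droplet protein, fell at 24 h (-3.89 ± 0.31, FDR 3.3e-18). Angptl4, an inhibitor of lipoprotein lipase, rose at 6 h (0.58 ± 0.13, FDR 4e-05) and 24 h (2.63 ± 0.13, FDR 8.5e-29), and Pdk4, which spares glucose, at 24 h (1.11 ± 0.10, FDR 1.1e-16). In 5FU 15 rose and 1 fell at 6 h (0.29; 10 and 1 by library size alone) and 10 rose and 5 fell at 24 h, with Pdk4 up at 6 h (1.18 ± 0.11, FDR 5.9e-15) and Lpl, lipoprotein lipase, down at 24 h (-1.13 ± 0.08, FDR 1.5e-18). In Ace 3 fell and none rose at 6 h, and 1 rose and 10 fell at 24 h (2 and 7 by library size alone). In the controls 21 rose and 1 fell with time (0.39).

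**Figure D4:**
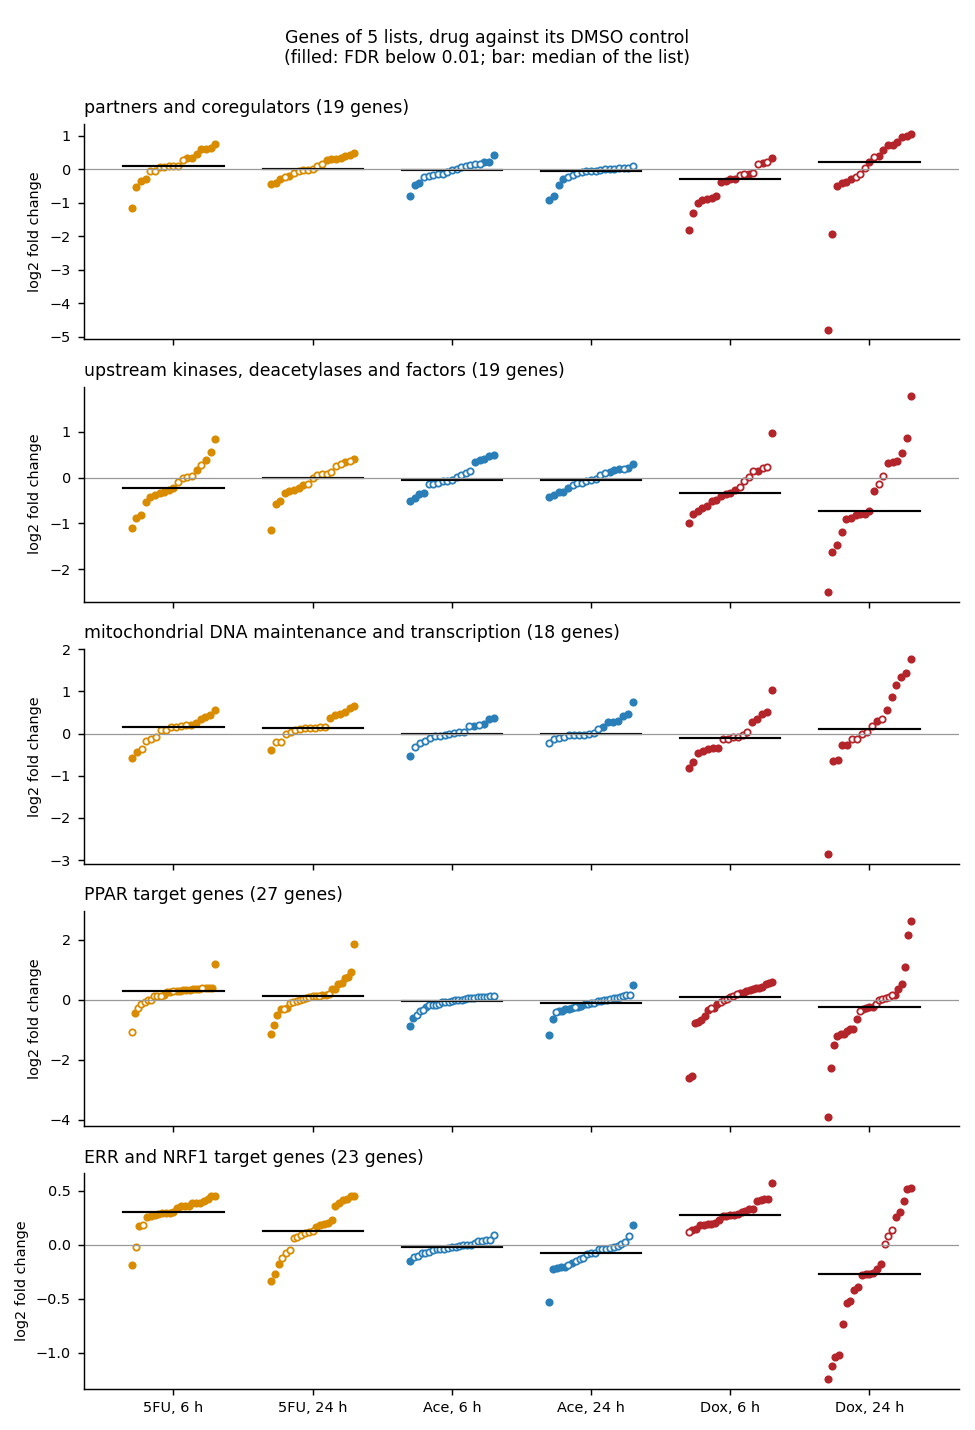
Log2 fold change (vertical axes) of every measured gene of the 5 lists for each drug against its DMSO control at 6 and 24 h; filled points passed an FDR below 0.01 and bars are list medians. The ERR and NRF1 targets all lie above 0 in Dox at 6 h (median 0.27) and mostly below it at 24 h (median -0.27).

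Across the 65 libraries some of the 10 genes ran together. The Pearson correlation of log2 CPM was 0.93 between Ppargc1a and Esrrg, 0.86 between Ppara and Esrrg, 0.81 between Ppara and Ppargc1a and 0.80 between both coactivators. With group means removed these were 0.37, 0.44, 0.54 and 0.45. Ppard and Esrrg, at -0.31 over all libraries, were at 0.71 with group means removed. Among the other genes with a mean count of at least 100, those most like Ppargc1a, with the correlation over all libraries and then that with group means removed, were Hdac9 (0.97 and 0.42), Afap1l1 (0.97 and 0.20) and Ednra (0.97 and 0.40), those most like Ppargc1b Ssh2 (0.96 and 0.78), Afap1 (0.95 and 0.69) and Strn3 (0.94 and 0.22) and those most like Esrrg Clasp1 (0.95 and 0.68) and Ralgdsl1 (0.95 and 0.52). For Ppara they were Rilpl1 (0.93 and 0.19), Kmt5c (0.93 and 0.58) and Zfp106 (0.92 and 0.28) and for Ppard Rnf213 (0.93 and 0.60), Pip5k1c (0.92 and 0.70) and Med12l (0.91 and 0.49). For Nrf1 they were Kat5 (0.92 and 0.31), Srsf4 (0.91 and -0.12) and Nepro (0.90 and 0.27) and for Tfam Fcf1 (0.91 and 0.62), Rps27l (0.91 and 0.65) and Med10 (0.88 and 0.71). For Esrrb they were Lbh (0.90 and 0.00), Tia1 (0.89 and 0.19) and Prdm16 (0.88 and 0.25), and for Esrra Prpf40b (0.82 and 0.29), Ppm1a (0.81 and 0.27) and Tapbp (0.78 and 0.21). For Pparg, on the fewest counts, they were Nars1 (0.71 and 0.15), Tagln2 (0.70 and 0.14) and Fxyd5 (0.70 and 0.23). With group means removed the values of these genes ran lower throughout, down to near 0 for Lbh and below 0 for Srsf4. The correlations share libraries, groups and depth and are given as a description.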

How the data were processed

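Poly(A) RNA of neonatal rat cardiomyocyte cultures was sequenced with paired reads. The authors estimated transcript abundance with kallisto 0.46.0 on the rat Ensembl transcriptome, summed it to Entrez genes with tximport, removed low genes and deposited whole-number estimated counts for 14554 genes, which were used as they are. Sharing of reads among paralogs was settled by kallisto's estimates. Symbols for 14009 identifiers came from RefSeq (GRCr8). A count of at least 10 in 1 library was required, which removed 0 genes. Samples were grouped by their labelled treatment and time.

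One model of all 10 groups was fitted with edgeR 4.0.16 (R 4.3.3, limma 3.58.1) with TMM scaling and the quasi-likelihood test, with 16 comparisons and Benjamini-Hochberg adjustment over all genes, at an FDR below 0.01. Intervals are ±1.96 SE. Differences of effects are interaction terms of the same model. The alternatives were DESeq2 1.42.0, its size factors, library size alone, other filters and thresholds, a fit of the compared groups alone and each library left out. No columns were left unmapped, and no 2 libraries of a group differed by as little as sampling noise. The code was tested on simulated data.

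The text names the 10 genes, the cell type markers, up to 3 called genes of each functional list with the largest increase and decrease (with 100 or more counts on average), and the 3 genes best correlated with each of the 10. Some genes that this rule selects are not reported here. The 10 genes and the lists were chosen with earlier results of these data known. A table of the authors' own comparisons that the labels name was not used here. Count totals of 14332827 to 25738297 leave few counts for Pparg and Esrrb.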

Additional observations from a re-analysis of the deposited data

Results flagged for a closer look

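In 5 of 100 sets of 6 or 7 libraries checked, 1 library lay far from the others of its group by Dixon's criterion, as many as the 1 in 20 that chance gives. In 5FU at 24 h library 1 had 55.6 CPM of Ppard, and in Ace at 24 h library 4 had 61.7, each above its group. For Esrrb library 1 of 5FU at 6 h had 1.71 CPM, from 31 counts, and library 2 of Ace at 6 h had 4.25, both high. For Nrf1 library 5 of 5FU at 6 h was low at 28.3 CPM.

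The effect of a drug differed between times or between drugs, by the interaction term of edgeR's model at an FDR below 0.01, in 23 cases. Between 24 and 6 h of 5FU the effect on Ppargc1a was higher by 0.73 ± 0.11 on the log2 scale, that on Esrra by 0.56 ± 0.11 and that on Tfam by 0.25 ± 0.07. The differences of Ppargc1b (-0.66 ± 0.17) and Nrf1 (-0.34 ± 0.08) were negative. In Ace the effect on Nrf1, positive at 6 h, was lower at 24 h (-0.40 ± 0.08). In Dox the differences between 24 and 6 h were positive for Ppard (1.74 ± 0.12), Nrf1 (1.43 ± 0.08) and Tfam (0.33 ± 0.07). They were negative for Ppara (-0.68 ± 0.16), Ppargc1a (-0.46 ± 0.10) and Esrrg (-0.63 ± 0.12).

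Dox and 5FU effects differed at 6 h in Nrf1 (-2.04 ± 0.08), Ppargc1b (-1.77 ± 0.17), Ppargc1a (-0.64 ± 0.10) and Ppara (-0.59 ± 0.17), each lower in Dox. At 24 h they differed in Ppargc1a (-1.83 ± 0.10), Ppargc1b (-1.38 ± 0.17), Ppara (-1.24 ± 0.16), Esrrg (-1.15 ± 0.12), Esrra (-0.52 ± 0.11) and Nrf1 (-0.26 ± 0.08), lower in Dox, and in Ppard (1.22 ± 0.12), higher in Dox.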

How the results depend on the processing

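No paired analysis was possible because the columns of the count table carry no replicate numbers. With DESeq2 in place of edgeR, with its size factors, with filterByExpr or with no filter, the calls were unchanged for every gene and comparison except Nrf1 in 5FU at 6 h, and the direction except for the uncalled values below. The precision for Pparg and Esrrb is limited by their few counts and wide spread between cultures. 

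Of the 10 genes, the numbers called when a log2 change of at least 1 was also required were 0 for time in the controls, 2 and 1 for 5FU at 6 and 24 h, 0 and 0 for Ace, 4 for Dox at 6 h, 0 between the controls at 6 h, 4 between Dox and Ace at 6 h, 2 between Dox and 5FU effects at 6 h, and 0, 0 and 2 for differences between 24 and 6 h of 5FU, Ace and Dox. At an FDR below 0.1 they were 7 for 5FU at 6 h, 4 for Ace at 24 h, 2 for Ace between times, 2 and 1 between the controls at 6 and 24 h and 7 between Dox and 5FU effects at 6 h. With the compared groups alone Ace gave 3 at 24 h and 2 between times, and the controls 0 at 6 h. By library size alone these were 2 and 2 in Ace and 1 between the controls at 24 h. Without the 3 libraries least like their groups, an alternative chosen after seeing the data, Ace gave 2 at 24 h. Leaving out 1 library at a time gave 1 to 2 for Ace at 24 h, 2 to 5 at 6 h and 0 to 1 between the controls at 24 h. Only numbers that moved from the main fit by more than a set ratio are listed here. In Dox at 24 h, which is not listed, Ppara, Ppard, Ppargc1a, Ppargc1b, Esrrb and Esrrg had changes of at least 1 in size. The share of all genes passing was not computed at these other settings, so these numbers have no background beside them.

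Values that changed sign were all uncalled, and the cause was not tested. Esrra in Dox at 24 h was 0.0132 with DESeq2 or its size factors and 0.02 by library size alone. By library size alone Esrrb between Dox and 5FU effects at 6 h was -0.057, Esrrg between controls at 24 h 0.0188, Nrf1 and Tfam between controls at 6 h -0.0283 and -0.0631, Ppara between times of 5FU 0.0418, Ppard between times of Ace 0.0808 and Tfam between Dox and 5FU effects at 6 h -0.0366. Pparg in Ace at 6 h was 0.00884 with filterByExpr, and Esrra between controls at 24 h -0.042 without the 3 libraries. Leaving out 1 library at a time, Esrra ran from -0.0443 to 0.059 between controls at 24 h and -0.0695 to 0.0457 in Dox at 24 h, Esrrb from -0.166 to 0.416 between Dox and 5FU effects at 6 h and -0.00256 to 0.262 between times of Dox, Esrrg from -0.0868 to 0.00414 between controls at 6 h, Ppara from -0.0859 to 0.0554 between times of 5FU, Ppard from -0.0863 to 0.0487 in 5FU at 24 h and -0.0604 to 0.0415 between times of Ace, Pparg from -0.0957 to 0.11 in Ace at 6 h and Tfam from -0.0175 to 0.0496 between controls at 6 h.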
